A study of Mus musculus with 6 samples.

Results

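Markers of other blood lineages were examined in natural killer (NK) cells sorted from mouse spleen, to describe how pure the sorted RNA was and whether any other lineage differed between the genotypes. The set held 56 of the 19938 genes measured: 10 markers of B cells, 13 of T cells, 15 of monocytes, macrophages and dendritic cells (called myeloid here), 8 of neutrophils, 3 of erythroid cells and 7 of platelets. They were chosen by name as genes that define these lineages, and each had a probe set annotated to exactly 1 gene symbol. All 56 were measured, with 1 probe set each, and no filter on dim values was applied.

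RNA was measured on 6 Affymetrix arrays. Cells of 15a/16-1FKO mice, the knockout in what follows, were run on 3 of them, and cells of Ctrl mice, the control, on the other 3. All cells came from C57Bl/6 mice aged 8 to 12 weeks and were sorted from spleen by a gate that kept NK1.1+ cells with YFP and CD27 and left out cells with CD3. The labels do not name the reporter or the promoter behind YFP, or the control's alleles. Replicates within a genotype are described as technical in the series' design, and every p-value here rests on the spread of 3 arrays a genotype. The sex-linked transcripts given below differed between arrays of 1 genotype, so the 3 arrays did not hold RNA of equal sex composition, and the labels do not say which mice each array held.

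An NK sort has to separate a small population from spleen cells that are mostly B cells, T cells, red cells and phagocytes. NK cells share many molecules with T cells, such as signalling adaptors of the T cell receptor complex, but do not rearrange that receptor and need none of the CD4 or CD8 coreceptors. Neutrophils carry abundant transcripts for granule and calcium-binding proteins. In RNA of a whole sort, fewer cells of a type and less RNA per cell cannot be told apart.

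The arrays were checked against their labels before the markers were read. Mir15a, the precursor gene of the deleted microRNA-15a, was at 4.37, 3.53 and 3.43 (log2 level) in knockout replicates 1 to 3 and at 7.14, 6.02 and 6.69 in control replicates 1 to 3, without overlap. All 19 NK reference genes lay above background on every array. Among them Ncr1, the NKp46 receptor, lay between 10.43 and 10.72, Klrb1c, which encodes the gated NK1.1 antigen, between 9.66 and 9.85, Nkg7, a granule protein, between 11.69 and 11.81, and Cd27 between 8.74 and 9.39. Sex-linked transcripts differed between arrays of 1 genotype. Xist, expressed from the inactive X chromosome, was at 7.56, 8.58 and 8.84 in the knockout and at 9.65, 3.89 and 8.86 in the control. The Y-linked Eif2s3y was at 7.88, 6.6 and 6.18 in the knockout and at 2.33, 7.95 and 6.29 in the control. Knockout replicate 1 and control replicate 2 thus had the highest Y-linked and the lowest Xist levels of the 6 arrays.

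Most lineage markers lay at background. The table carries no detection calls, so background was described by 1027 olfactory receptor genes, which serve smell in the nose: 95% of them had a mean log2 level under 4.13 and 99% under 5.01. Of the 56 markers, 35 had a mean over the 6 arrays at or under 4.13 and 21 had a mean above it, against 54.6% of all genes. Only 9 exceeded 5.01, where 39.5% of all genes did. These 9 were the T cell genes Cd3d, Cd3e, Cd3g, Cd28 and Icos, the myeloid genes Lyz2 and Cd68, and the neutrophil genes S100a8 and S100a9. No B cell, erythroid or platelet marker was among them. Probe sets differ in brightness for equal amounts of RNA, so levels are set against these marks here and genes are not ranked against each other.

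**Figure D1:**
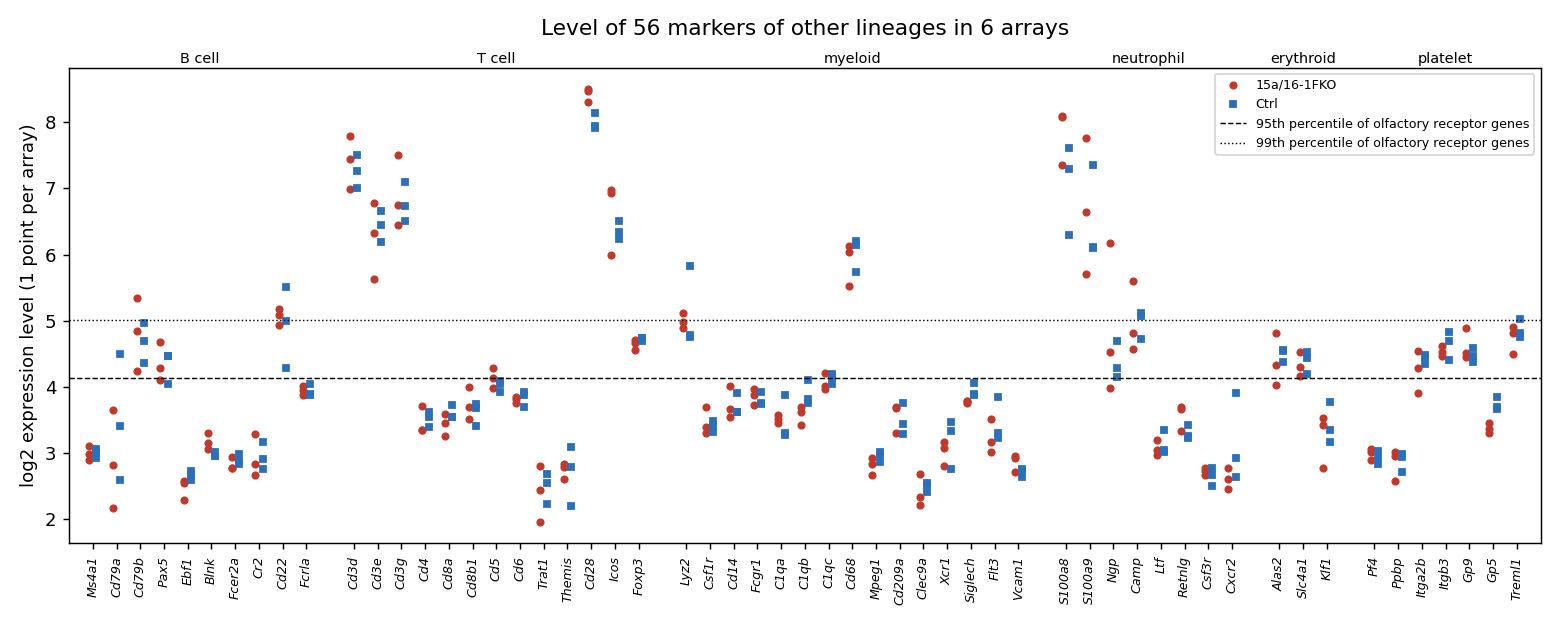
Log2 expression level of the 56 markers (y axis) by gene and lineage (x axis), with 1 circle per 15a/16-1FKO array and 1 square per Ctrl array, 3 each. The dashed and dotted lines are the levels under which 95% (4.13) and 99% (5.01) of 1027 olfactory receptor genes lay; 9 markers had a mean above the upper line.

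None of the 56 markers passed the threshold between genotypes. Each gene was compared by limma, with Benjamini-Hochberg adjustment over all 19938 genes, and the smallest adjusted p among the markers was 0.999. At that threshold of 0.05, 0.0201% of all genes were called. An unadjusted p under 0.05 was reached by 3 of 56, namely Cd28 and S100a8, with higher means in the knockout, and Gp5, with a lower one. Of all genes 3.47% reached it, 1.55% higher and 1.91% lower. Knockout and control values were fully apart for 6 of 56, with Cd28 and Blnk higher and Ebf1, C1qb, Siglech and Gp5 lower in the knockout. Of all genes 8.33% had no overlap, 3.68% higher and 4.65% lower. Of these 6, only Cd28 lay above background. The 56 differences had a median of -0.02 on the log2 scale, 27 being positive and 29 negative, and the median over all genes was -0.01. An exact permutation test of 3 against 3 arrays cannot give a p under 0.1, and none is given for single genes.

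**Figure D2:**
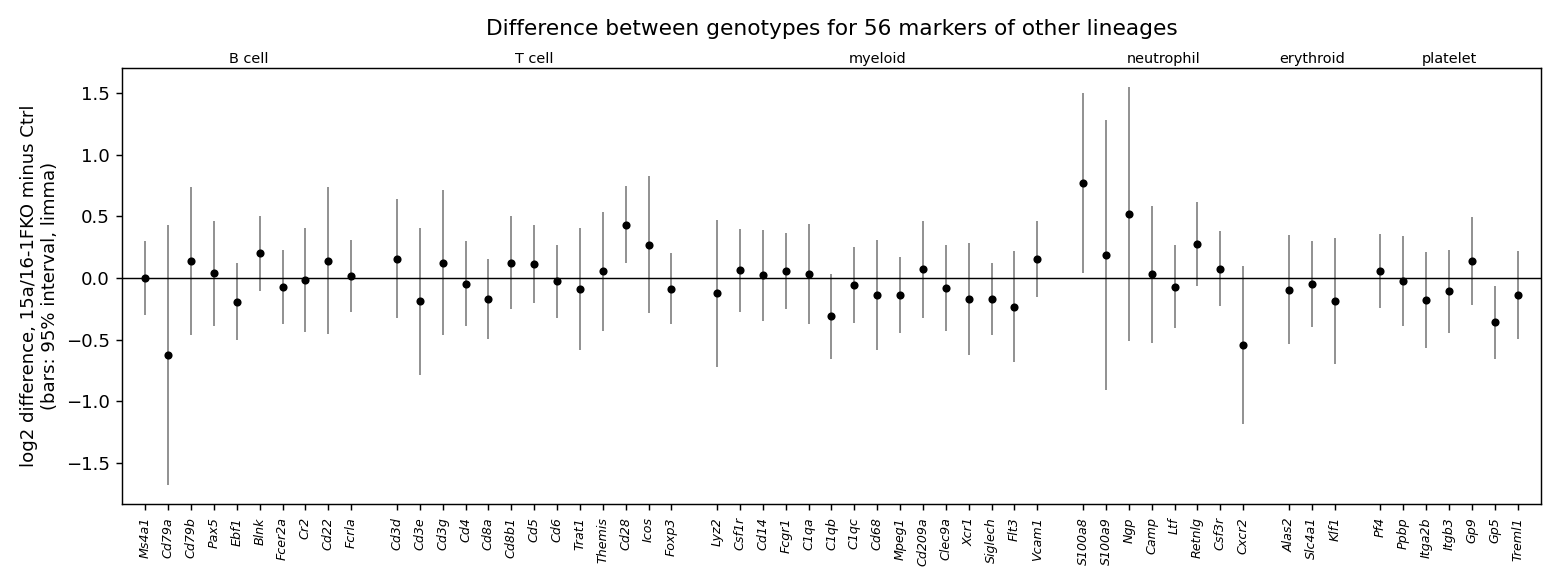
Log2 difference, 15a/16-1FKO minus Ctrl, for the 56 markers (y axis) by gene and lineage (x axis); points are limma estimates from 3 against 3 arrays and bars their 95% intervals. The intervals of Cd28, S100a8 and Gp5 leave out 0 before adjustment, and none passed over all genes.

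Of the 13 T cell markers, 6 were above background on every array, namely Cd3d, Cd3e, Cd3g, Cd28, Icos and Foxp3. The other 7, the coreceptors among them, had means under the mark. Cd3d, Cd3e and Cd3g encode the signalling chains that accompany the T cell receptor. Their surface complex was excluded by the sort.

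Cd3d was at 6.99, 7.79 and 7.44 in knockout replicates 1 to 3 and at 7.0, 7.50 and 7.26 in control replicates 1 to 3. Cd3e was at 5.63, 6.78 and 6.32 in the knockout and at 6.66, 6.44 and 6.19 in the control. Cd3g was at 6.75, 6.45 and 7.50 in the knockout and at 7.10, 6.51 and 6.73 in the control. The genotypes overlapped for all 3 chains, and the chains did not share an order of arrays: knockout replicate 2 was the highest for Cd3d and Cd3e and the lowest for Cd3g. The differences were 0.16 (95% interval -0.33 to 0.64) for Cd3d, -0.19 (-0.79 to 0.41) for Cd3e and 0.12 (-0.46 to 0.71) for Cd3g. The 3 genes lie on chromosome 9.

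The coreceptors that define mature T cells were at background. Cd4 lay between 3.35 and 3.71 over the 6 arrays, Cd8a between 3.26 and 3.72 and Cd8b1 between 3.41 and 4.0, all under 4.13. Themis, needed for thymocyte selection, and Trat1, an adaptor of the T cell receptor, lay between 1.96 and 3.09. The receptors Cd5 and Cd6 lay between 3.70 and 4.29, with 1 of the 12 values above the mark. Foxp3, the factor of regulatory T cells, was above 4.13 on every array but in a narrow range, 4.55 to 4.74, under the 5.01 mark. Its difference was -0.09 (95% interval -0.38 to 0.20). Cd8a differed by -0.17 (95% interval -0.50 to 0.16) and Cd4 by -0.05 (-0.39 to 0.30).

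Cd28, a costimulatory receptor that also occurs on NK cells, had the smallest unadjusted p of the markers. It was at 8.5, 8.48 and 8.31 in the knockout and at 8.14, 7.91 and 7.94 in the control, so that all 3 knockout arrays lay above all 3 control arrays. The means were 8.43 ± 0.11 and 8.00 ± 0.13 (SD, n = 3 arrays each), a difference of 0.43 (SE 0.14, 95% interval 0.12 to 0.75) or 1.35-fold, with an adjusted p of 0.999 by limma. Icos, the related inducible costimulator, which lies on the same chromosome 1, was at 6.93, 6.97 and 5.99 in the knockout and at 6.23, 6.51 and 6.34 in the control. Here knockout replicates 1 and 2 lay above, and replicate 3 below, every control array, and the difference was 0.27 (95% interval -0.29 to 0.83).

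Of the 10 B cell markers, 7 had means under the background mark and Cd79b, Pax5 and Cd22 had means between the 4.13 and 5.01 marks. Ms4a1, which encodes the CD20 antigen, lay between 2.90 and 3.11, and its difference of 0.00 had a 95% interval of -0.30 to 0.30. Ebf1, a factor of B cell commitment, Fcer2a, the low-affinity IgE receptor, Cr2, a complement receptor, the adaptor Blnk and the Fc receptor-like Fcrla lay between 2.29 and 4.04, none above the mark. Pax5, which maintains B cell identity, lay between 4.05 and 4.68, above the mark on 4 of 6 arrays, with a difference of 0.04 (95% interval -0.39 to 0.46). Blnk differed by 0.20 (95% interval -0.10 to 0.50) and Ebf1 by -0.19 (-0.51 to 0.12), both without overlap and both under the mark on every array.

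The B cell receptor genes varied more between arrays than between genotypes. Cd79a, a signalling chain of that receptor, was at 3.65, 2.17 and 2.82 in the knockout and at 3.41, 2.59 and 4.5 in the control. Its partner chain Cd79b was at 5.35, 4.84 and 4.24 in the knockout and at 4.36, 4.69 and 4.97 in the control. Cd22, an inhibitory lectin of B cells, was at 5.18, 4.94 and 5.09 in the knockout and at 4.29, 5.0 and 5.51 in the control. In each of these 3 genes, knockout replicate 1 and control replicate 3 were the highest arrays of their genotype. For 4 of the 10 B cell markers these 2 arrays were the highest of all 6, a pattern picked after the values were seen. The same held for 4.15% of all genes and 4.87% of genes above background. Of the 13 wider B cell markers described at the end, knockout replicate 1 was the highest array for 0 and knockout replicate 2 for 6. The within-genotype SD of Cd79a, 0.86, was larger than that of 99.7% of all genes. Its difference of -0.62 had a 95% interval of -1.68 to 0.43, and was -0.12 without control replicate 3 and -1.08 without control replicate 2.

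Myeloid markers were at background except for Cd68 and Lyz2. Csf1r, the receptor for the macrophage growth factor, lay between 3.31 and 3.70, the endotoxin co-receptor Cd14 between 3.55 and 4.01 and the high-affinity IgG receptor Fcgr1 between 3.73 and 3.97. C1qa, C1qb and C1qc, the 3 chains of complement C1q that macrophages of the spleen make, lay between 3.27 and 4.21. C1qc was above the mark on 3 of 6 arrays, with a mean of 4.09 just under it, and C1qa and C1qb were under it on all. The dendritic cell genes Clec9a, Xcr1, Cd209a and Flt3 lay between 2.21 and 3.84. Siglech, a lectin of plasmacytoid dendritic cells, lay between 3.75 and 4.06. Mpeg1, a pore-forming protein of phagocytes, and the adhesion molecule Vcam1, carried by red pulp macrophages, lay between 2.64 and 3.01.

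Cd68, a lysosomal glycoprotein that is most abundant in macrophages, was at 5.52, 6.04 and 6.13 in the knockout and at 6.15, 5.74 and 6.21 in the control. Lyz2, the lysozyme of phagocytes, was at 5.12, 4.98 and 4.89 in the knockout and at 4.78, 5.83 and 4.75 in the control. The genotypes overlapped for both, and control replicate 2 stood above the other arrays for Lyz2. Their differences were -0.14 (95% interval -0.58 to 0.31) and -0.12 (-0.72 to 0.47). C1qb was lower in all 3 knockout arrays, at 3.42, 3.62 and 3.70 against 4.11, 3.76 and 3.81, and differed by -0.31 (95% interval -0.65 to 0.03). Its neighbours C1qa and C1qc, also on chromosome 4, differed by 0.03 and -0.06, so the chains did not move together. Siglech differed by -0.17 (95% interval -0.46 to 0.12), Csf1r by 0.06 (-0.27 to 0.40) and Clec9a by -0.08 (-0.43 to 0.27).

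Among the 6 lineages of the set, the 8 neutrophil markers had the largest median within-genotype SD, 0.44, against 0.20 for all genes. The 10 wider neutrophil markers described at the end, which include Ly6g, Mpo and Elane, had a median SD of 0.21. They were dim: 6 of the 10 had means under the background mark, and the highest mean was 4.43. S100a8 and S100a9 encode the subunits of calprotectin, the most abundant protein pair of the neutrophil cytosol, Ngp encodes a granule protein and Camp the antimicrobial cathelicidin. The 4 genes had means above background, with every array above it except knockout replicate 2 for Ngp, and had their highest value in knockout replicate 1. For S100a8 that value was 8.09, against 8.08 in knockout replicate 3. Knockout replicate 1 was highest for 5 of the 8 neutrophil markers, for 16.2% of all genes and for 21.8% of genes above background. Their promoters are shown because the 4 levels were highest on the same array. The windows hold 250 bases before and 50 after the start of the gene (RefSeq, build GRCm38.p6), written 5′ to 3′ on the gene's strand, and 43 of the 56 markers had such an entry. Capitals mark matches on either strand to TTGCNNAA, a motif of the C/EBP factors that drive granulocyte genes, or to AGGAAGT, a motif of ETS factors.
S100a8, chr3:90668821-90669120, strand +: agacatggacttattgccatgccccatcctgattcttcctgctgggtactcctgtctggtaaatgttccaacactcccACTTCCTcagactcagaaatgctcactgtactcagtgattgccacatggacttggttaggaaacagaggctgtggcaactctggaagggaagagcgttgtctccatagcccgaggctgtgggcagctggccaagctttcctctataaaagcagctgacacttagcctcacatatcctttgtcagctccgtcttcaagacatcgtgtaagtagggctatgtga
S100a9, chr3:90695672-90695971, strand -: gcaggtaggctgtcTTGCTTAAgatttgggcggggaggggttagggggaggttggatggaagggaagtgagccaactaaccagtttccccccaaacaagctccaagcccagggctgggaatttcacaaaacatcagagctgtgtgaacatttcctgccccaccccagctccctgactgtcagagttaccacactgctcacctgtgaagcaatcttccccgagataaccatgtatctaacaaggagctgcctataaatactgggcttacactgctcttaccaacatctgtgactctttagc
Ngp, chr9:110419558-110419857, strand +: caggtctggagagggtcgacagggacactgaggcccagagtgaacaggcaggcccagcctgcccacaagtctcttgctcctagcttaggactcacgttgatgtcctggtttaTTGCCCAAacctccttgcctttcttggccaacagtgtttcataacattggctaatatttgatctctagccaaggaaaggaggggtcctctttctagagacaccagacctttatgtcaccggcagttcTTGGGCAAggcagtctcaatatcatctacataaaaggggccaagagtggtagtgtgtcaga
Camp, chr9:109849407-109849706, strand -: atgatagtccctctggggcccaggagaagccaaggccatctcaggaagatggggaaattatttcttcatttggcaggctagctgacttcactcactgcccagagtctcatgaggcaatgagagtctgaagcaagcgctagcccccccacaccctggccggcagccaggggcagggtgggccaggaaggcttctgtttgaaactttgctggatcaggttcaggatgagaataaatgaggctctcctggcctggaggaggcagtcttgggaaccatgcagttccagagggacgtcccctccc
The C/EBP motif began at -236 from the start in S100a9, and at -138 and, on the other strand, -11 in Ngp. It was in neither of the other windows, and 10.8% of 32851 promoters of the same length held it. The ETS motif began at -172 in S100a8, also on the other strand, and 9.35% of promoters held it. Positions are those of the first matched base along the gene's strand. The window of Camp held neither. No matches of these motifs overlapped each other, and a match describes letters only.

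S100a8 was at 8.09, 7.35 and 8.08 in knockout replicates 1 to 3 and at 7.29, 7.61 and 6.30 in control replicates 1 to 3. The genotypes overlapped, with knockout replicate 2 below control replicate 2 and control replicate 3 lowest. The means were 7.84 ± 0.42 and 7.07 ± 0.68 (SD, n = 3 arrays each), a difference of 0.77 (SE 0.32, 95% interval 0.04 to 1.5) or 1.70-fold, with an adjusted p of 0.999 by limma. Without control replicate 3 the difference was 0.39.

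S100a9, whose protein pairs with that of S100a8, was at 7.77, 5.70 and 6.64 in the knockout and at 6.10, 7.36 and 6.11 in the control. It spanned more than the genotypes differed, with the highest and the lowest array both from the knockout. Its within-genotype SD of 0.89 exceeded that of 99.8% of all genes, and its difference of 0.18 had a 95% interval of -0.91 to 1.28. Without knockout replicate 1 the difference turned to -0.35.

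Ngp was at 6.18, 3.98 and 4.53 in the knockout and at 4.28, 4.69 and 4.15 in the control. Knockout replicate 1 alone stood far above the rest, and without it the difference of 0.52 (95% interval -0.51 to 1.55) became -0.12. Camp was at 5.60, 4.58 and 4.82 in the knockout and at 5.07, 5.11 and 4.73 in the control, with a difference of 0.03 (95% interval -0.52 to 0.58) that became -0.27 without knockout replicate 1. For S100a9, Ngp and Camp, 3 of the 8 neutrophil markers, the highest arrays of all 6 were knockout replicate 1 and then control replicate 2. This pair was on top for 6.57% of all genes and 9.45% of genes above background, again in a pattern picked after the values were seen. These are the same arrays that had the highest Y-linked levels, with Eif2s3y at 7.88 and 7.95. The part of sex-linked or animal differences in the neutrophil signal was not tested.

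The remaining neutrophil markers were at background. The granule protein Ltf (lactoferrin), the secreted Retnlg and the growth factor receptor Csf3r lay between 2.50 and 3.70. Cxcr2, the chemokine receptor that guides neutrophils, was at 2.60, 2.46 and 2.77 in the knockout and at 2.93, 2.63 and 3.90 in the control, where control replicate 3 stood apart while still under the mark. Its difference was -0.55 (95% interval -1.18 to 0.09), and -0.17 without control replicate 3. In the limma fit blocked on replicate its unadjusted p was 0.0262 and its adjusted p 0.999. Retnlg differed by 0.28 (95% interval -0.06 to 0.62).

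**Figure D3:**
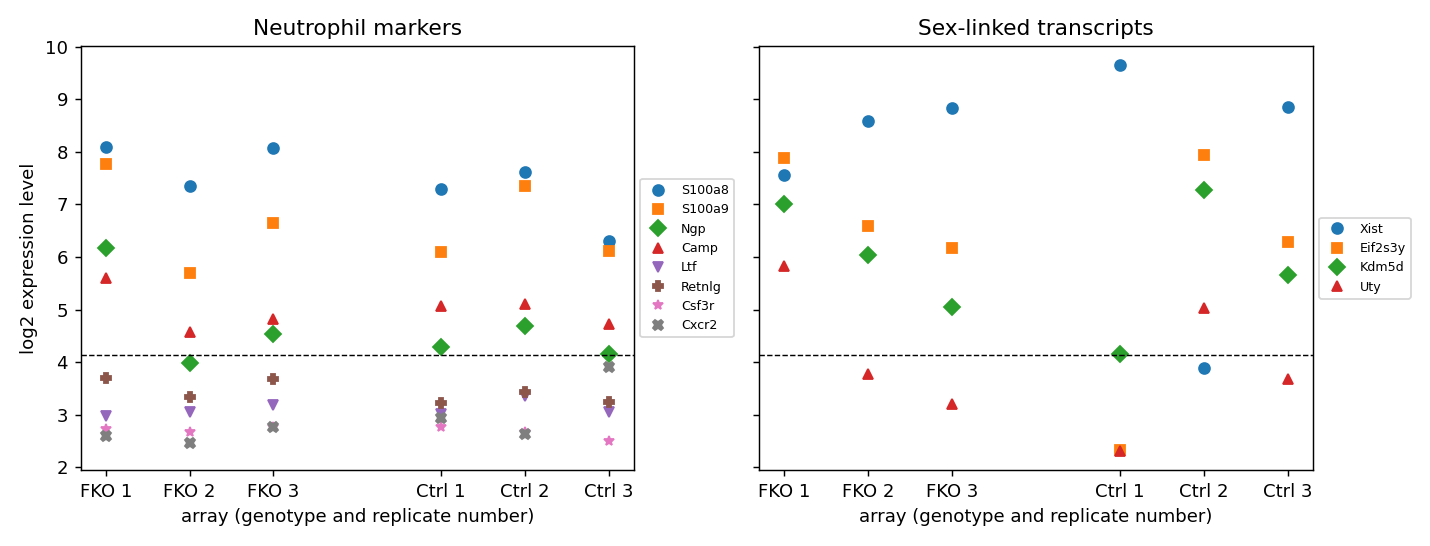
Log2 expression level (y axis) of the 8 neutrophil markers (left) and 4 sex-linked transcripts (right) on each array (x axis; FKO is 15a/16-1FKO, with replicate numbers), and the 4.13 background mark (dashed). S100a8, S100a9, Ngp and Camp are highest in FKO 1, and the Y-linked Eif2s3y, Kdm5d and Uty are highest in FKO 1 and Ctrl 2.

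Erythroid and platelet markers were under or just above the background mark. Alas2, the first enzyme of heme synthesis in red cells, lay between 4.03 and 4.82 and the anion exchanger Slc4a1 between 4.17 and 4.53. The erythroid factor Klf1 lay between 2.77 and 3.77, all under the mark. Alas2 differed by -0.10 (95% interval -0.54 to 0.35), Slc4a1 by -0.05 (-0.40 to 0.30) and Klf1 by -0.19 (-0.70 to 0.33).

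Among platelet genes the chemokines Pf4 and Ppbp, which are stored in platelet granules, lay between 2.58 and 3.06. Itga2b and Itgb3, which form the fibrinogen receptor, lay between 3.91 and 4.83, Gp9, of the receptor for von Willebrand factor, between 4.37 and 4.89, and the granule membrane receptor Treml1 between 4.49 and 5.03. Gp5, which associates with the same receptor as Gp9, was at 3.36, 3.45 and 3.31 in the knockout and at 3.84, 3.66 and 3.69 in the control. Every knockout array was below every control array, and all 6 were under the mark. The means were 3.37 ± 0.07 and 3.73 ± 0.09 (SD, n = 3 arrays each), a difference of -0.36 (SE 0.13, 95% interval -0.66 to -0.06), with an adjusted p of 0.999 by limma. Gp9 differed the other way, by 0.14 (95% interval -0.22 to 0.50), Itga2b by -0.18 (-0.57 to 0.21) and Pf4 by 0.05 (-0.25 to 0.36).

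Sums over each lineage's markers were taken on the linear scale, where brighter probe sets weigh more. Of the 6 sums, that of the neutrophil markers varied most. It ran from 286 to 645 in the knockout and from 231 to 454 in the control, so that the highest array held 2.79 times the lowest. Without S100a8 and S100a9, the sum of the other 6 neutrophil markers was 154 in knockout replicate 1 and between 69.9 and 93.8 on the other 5 arrays. Most of that 154 came from Ngp and Camp, at 6.18 and 5.60 (log2) in knockout replicate 1. Ltf, Retnlg, Csf3r and Cxcr2 lay between 2.60 and 3.70 there and were under the mark on every array. The 10 wider neutrophil markers did not follow the order of arrays seen for the members. Their sums ran from 122 to 141, 1.16 times between the highest and the lowest array. Knockout replicate 1 held the highest value of none of them, 0 of 10, with a sum of 133. Means under the background mark were found for 6 of these 10 and for 4 of the 8 members. Whether neutrophil RNA differed between arrays was not tested. The B cell sum ran from 130 to 164 in the knockout and from 125 to 175 in the control, and the myeloid sum from 213 to 250 and from 245 to 260. The erythroid sum lay between 47.6 and 60.0 and the platelet sum between 112 and 137 over all 6 arrays, with overlap between genotypes.

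The T cell sum did not overlap, at 869 to 1009 in the knockout and 765 to 832 in the control. Without Cd28 the sum ran from 507 to 653 in the knockout and from 520 to 552 in the control, and the genotypes overlapped. For comparison, the sum of the 19 NK reference genes varied by 1.12 times between the highest and the lowest array.

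**Figure D4:**
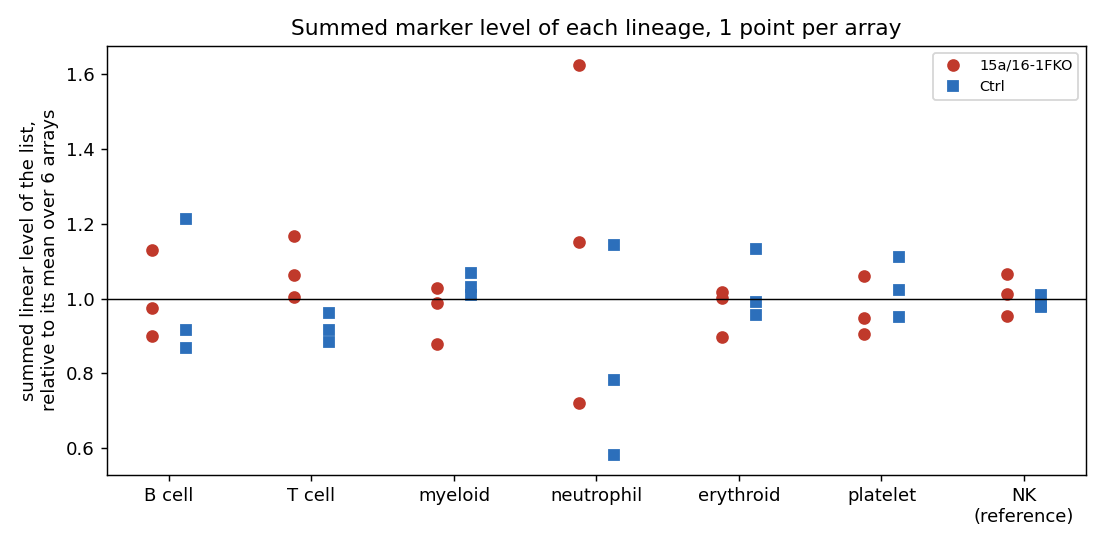
Summed linear level of each lineage's markers per array, relative to the mean of the 6 arrays (y axis), for the 6 lineages and the 19 NK reference genes (x axis); circles are 15a/16-1FKO arrays and squares Ctrl arrays, 3 each. The neutrophil sums spread furthest, with 2.79 times between the highest and lowest array, and the T cell sums do not overlap.

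By lineage, the median differences were 0.01 for B cell, 0.05 for T cell, -0.08 for myeloid, 0.13 for neutrophil, -0.10 for erythroid and -0.11 for platelet markers, beside -0.01 for all genes. With 1 array left out, 4 of these medians changed sign. The B cell median was -0.027 without knockout replicate 1 or control replicate 1, and -0.023 without control replicate 2. The T cell median was -0.0065 without knockout replicate 2. The neutrophil median was -0.072 without knockout replicate 1 and -0.010 without control replicate 3. The erythroid median was 0.032 without knockout replicate 1. Positive differences were found for 6 of 10, 7 of 13, 6 of 15, 6 of 8, 0 of 3 and 2 of 7 markers, in the same order.

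A wider list of lineage markers outside the 56 was read in the same way. Of its 87 genes, 65 had a probe set with 1 symbol and the rest were not analysed here. None of the 65 passed over all genes by limma (smallest adjusted p 0.999), 2 of 65 had an unadjusted p under 0.05, 27 had positive and 38 negative differences, and the median was -0.02. The 2 were Lcn2, a neutrophil granule protein, with a difference of 0.33 (SE 0.14), and Ermap, a red cell membrane protein, with -0.40 (SE 0.13), and neither overlapped between genotypes. Vpreb3 and Siglecg led the wider B cell genes by unadjusted p, at -0.27 (SE 0.17) and -0.13 (SE 0.15). Vsig4 and Cd163, of resident macrophages, were at background and differed by 0.25 (SE 0.14) and 0.26 (SE 0.18). Other genes with the smallest unadjusted p of their wider list were Izumo1r at -0.25 (SE 0.14) and Ctsg at 0.32 (SE 0.23). Hemgn was at 0.23 (SE 0.15), Clec1b at -0.30 (SE 0.16) and Nrgn at -0.13 (SE 0.13). Genotypes did not overlap for 7 of the 65, Izumo1r and Nrgn among them, against 8.33% of all genes.

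Some wider markers were well above background, and these are named after their values were seen. Of 13 wider B cell markers, Cd72, a lectin-type receptor, lay between 7.45 and 8.19 and Tnfrsf13c, the receptor of the survival factor BAFF, between 5.31 and 6.02, both over the 5.01 mark on every array. Of 13 wider T cell markers, 9 were above 4.13 on every array. These 9 were the adhesion receptor Cd2, between 9.93 and 10.16, the signalling genes Zap70 (7.13 to 7.84), Cd247 (7.18 to 7.61), Lat (7.69 to 8.12) and Ubash3a (5.47 to 6.07), the transcription factors Lef1 (7.28 to 7.93) and Zbtb7b (5.79 to 6.26), the chemokine receptor Ccr7 (4.89 to 5.52) and the costimulatory receptor Tnfrsf4 (4.78 to 5.48). In limma's test 0 of 13 in each of these lists had an unadjusted p under 0.05. The costimulatory inhibitor Ctla4, related to Cd28 and Icos and on the same chromosome, lay between 2.88 and 3.00 and Cd40lg, the helper ligand of activated T cells, between 2.26 and 2.62, both under the mark. Dapl1 had the smallest unadjusted p of these genes, at 3.21, 6.69 and 4.26 in the knockout and at 3.55, 3.14 and 3.38 in the control. Knockout replicates 2 and 3 lay above every control array and replicate 1 lay among them, for a mean difference of 1.37 with an interval from -0.16 to 2.89 and, in limma, an adjusted p of 0.999. The heavy chain gene Ighm was also highest in knockout replicate 2, at 5.87 against 4.27 to 4.99 on the other arrays, as seen after its values were known. Of the 13 wider myeloid markers, Itgax lay between 8.91 and 9.44 and Cx3cr1 between 5.17 and 6.14. Nrgn, of the 7 wider platelet markers, lay between 5.97 and 6.18. Each of Itgax, Cx3cr1 and Nrgn was over the 5.01 mark on every array.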

How the data were processed

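RNA of sorted cells was hybridised to 1 array per sample. The authors deposited log2 expression values for 35556 probe sets and 6 arrays, and the submitters' processing notes list RMA and Partek 6.6, with no role for either. No genome build is given in the sources used here. RMA compresses differences of dim probe sets. Arrays carry no read depth, and their number limits the precision.

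Probe sets with exactly 1 symbol in GEO's platform annotation were used, and the one with the highest mean over the 6 arrays stood for its gene, which gave 19938 genes. Promoter sequences are RefSeq's. The members and lists were chosen with earlier results of these data known. Genotypes were compared in R 4.3.3 by a two-sided test of limma 3.58.1 (lmFit, then eBayes) with genotype as the only term, tested on simulated data, with adjustment over all genes. Differences are knockout minus control. Named genes were defining markers, the 2 smallest p of each lineage (also of the wider lists), and members above 4.13 on every array; others were named after their values were seen. Alternatives changed the normalization, filter, prior, weights, probe sets, replicate block, background mark and single arrays.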

Additional observations from a re-analysis of the deposited data

How the results depend on the processing

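The count of 0 members past the threshold was found under every alternative run: the replicate block, centring on array medians, a repeated quantile normalization, only genes at or above the median level, a trended and robust prior, array weights, testing all probe sets of 1 symbol or the whole table, each array left out and, chosen after seeing the data, a covariate for sex-linked transcripts. The count at an unadjusted p under 0.05, 3 members, was 4 with the replicate block and 2 to 5 with 1 array left out. Of all 19938 genes, 691 reached that level in the main fit. With the replicate block 854 did, and with 1 array left out 562 to 947. Whether the replicate numbers pair the arrays is not given by the labels and was not settled by the data: same-numbered arrays correlated at 0.048, 0.15 and 0.14 in their deviations from the genotype means, each array best with its own number, and the replicate block called 3 genes in place of 4. The 6 members without overlap were 7 to 15 with 1 array left out, where 16.3% to 19.8% of all genes had none. With the 99th percentile of olfactory receptor genes as mark, 9 in place of 21 members lay above background. The T cell sum differed by 0.23 (log2) between genotypes, and by 0.051 as mean log2 level. With 1 array left out, the median difference ran from -0.0065 to 0.12 for T cell and from -0.19 to -0.012 for platelet markers. Signs of the 36 named members were compared under the replicate block, centring on array medians, the sex-linked covariate and each array left out. They were not compared under the other alternatives. Of the 36, 17 kept their sign in all of these fits. The others changed it only when 1 array was left out, with the ranges Ms4a1 -0.054 to 0.053, Cd79b -0.13 to 0.42, Pax5 -0.12 to 0.16, Cd22 -0.19 to 0.43, Cd3d -0.034 to 0.37, Cd3e -0.46 to 0.12, Cd3g -0.18 to 0.35, Cd4 -0.17 to 0.016, Lyz2 -0.31 to 0.23, Csf1r -0.054 to 0.14, C1qa -0.077 to 0.23, Cd68 -0.28 to 0.051, Clec9a -0.22 to 0.017, S100a9 -0.35 to 0.68, Ngp -0.12 to 0.98, Camp -0.27 to 0.24, Alas2 -0.31 to 0.087, Slc4a1 -0.15 to 0.032 and Klf1 -0.33 to 0.048. No member has more than 1 probe set, so the comparison of probe sets could not be made. Dim probe sets limit what these arrays can show for markers near background.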
